A study of Homo sapiens with 6 samples.

Results

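Small nucleolar RNA host genes were examined in KMS27, an established human line of malignant plasma cells. The set comprised 10 genes, GAS5, ZFAS1, SNHG1, SNHG3, SNHG5, SNHG6, SNHG7, SNHG8, SNHG12 and SNHG15, chosen by symbol among 63677 gene IDs. They account for 139 of the 215170 transcripts for which the authors deposited TPM, an abundance per transcript length that sums to the same total in each library. All transcripts paired with a host's gene ID were added up, and single transcripts were then examined.

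The study compared 3 libraries of KMS27 cells overexpressing HA-TAZ with 3 libraries of wild type KMS27 cells. TAZ is the product of WWTR1, a coactivator of transcription under Hippo control that works through DNA-binding partners such as the TEAD factors, and HA is a short peptide tag. Libraries 1 to 3 with HA-TAZ and controls a to c are always listed in that order. The control columns carry a name found in no label and were taken as wild type by elimination. Titles of the wild type samples also carry HA, and whether those cells received a construct, and with what promoter or how many clones HA-TAZ was expressed, is not stated. The libraries were made in triplicate from ribosome-depleted total RNA with a stranded kit. No label says that they came from separate cultures, so the p-values measure the spread between these libraries, which may be technical.

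A small nucleolar RNA host gene is transcribed as a long RNA whose introns carry small nucleolar RNAs (snoRNAs). These are trimmed out of the introns, and most guide the modification of ribosomal and other RNAs. Most box C/D snoRNAs guide 2'-O-methylation and most box H/ACA snoRNAs guide pseudouridylation. The exons are spliced into a long non-coding RNA, which in many hosts is short-lived because nonsense-mediated decay (NMD) removes it. Many hosts belong to the 5' TOP genes, whose transcripts start with a C and a run of pyrimidines, as those of ribosomal protein genes do.

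The starts of the hosts are printed to show how far they carry this run. Windows from RefSeq (GRCh38.p14) were found for 8 of the 10 hosts. Each line gives the 20 bases before and after the annotated start base, with the longest run of C and T within 10 bases of the start in capitals.
ZFAS1: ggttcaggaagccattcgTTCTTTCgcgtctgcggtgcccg
SNHG1: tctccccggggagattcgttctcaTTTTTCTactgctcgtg
SNHG3: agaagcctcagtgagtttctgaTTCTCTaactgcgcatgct
SNHG5: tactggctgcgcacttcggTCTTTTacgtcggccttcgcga
SNHG7: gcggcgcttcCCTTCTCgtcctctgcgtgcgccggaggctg
SNHG8: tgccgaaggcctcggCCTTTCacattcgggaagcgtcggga
SNHG12: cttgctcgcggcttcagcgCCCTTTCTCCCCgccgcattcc
GAS5: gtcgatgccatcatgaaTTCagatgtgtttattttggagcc
The run was at least 6 bases long in 7 of the 8 hosts, compared with 22.8% of all 27305 RefSeq windows. It reached 6 bases in 50 of 64 ribosomal protein genes (78.1%). The longest run was the 12 bases of SNHG12, and GAS5 had 3 bases at the start annotated in RefSeq. In SNHG7 and GAS5 the run lay ahead of the annotated start, and in SNHG8 it ended at the start base. In SNHG1 and SNHG3 the run began shortly after the start. The windows lie at chr20:49278622-49278662, plus strand (ZFAS1), chr11:62855865-62855905, minus strand (SNHG1), chr1:28505923-28505963, plus strand (SNHG3), chr6:85678713-85678753, minus strand (SNHG5), chr9:136728164-136728204, minus strand (SNHG7), chr4:118278742-118278782, plus strand (SNHG8), chr1:28581853-28581893, minus strand (SNHG12) and chr1:173869025-173869065, minus strand (GAS5).

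Over the whole window of 300 bases, 250 before and 50 after the start, the word TATAA on either strand was present in 6 of the 8 hosts. It was present in 21.1% of all windows. In SNHG1 the word lay after the start and on the other strand. The word GGAATG, the core of the site that TEAD factors bind, was present on either strand in SNHG3 and SNHG12, and in 14.05% of all windows. The word CACGTG, an E-box, was present in SNHG7 and in 7.43% of all windows. No peak or binding data were used here, so a match describes letters only. The windows of SNHG5 (chr6:85678684-85678983, minus strand) and SNHG3 (chr1:28505693-28505992, plus strand) are printed as an example of a TATAA word ahead of the start and of the GGAATG word, in capitals on either strand.
SNHG5 promoter: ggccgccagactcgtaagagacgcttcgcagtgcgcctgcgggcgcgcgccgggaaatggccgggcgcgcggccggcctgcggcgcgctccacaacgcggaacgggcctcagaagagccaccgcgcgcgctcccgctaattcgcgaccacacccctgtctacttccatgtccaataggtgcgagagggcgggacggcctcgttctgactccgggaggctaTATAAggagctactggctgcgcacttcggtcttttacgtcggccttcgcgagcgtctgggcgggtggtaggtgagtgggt
SNHG3 promoter: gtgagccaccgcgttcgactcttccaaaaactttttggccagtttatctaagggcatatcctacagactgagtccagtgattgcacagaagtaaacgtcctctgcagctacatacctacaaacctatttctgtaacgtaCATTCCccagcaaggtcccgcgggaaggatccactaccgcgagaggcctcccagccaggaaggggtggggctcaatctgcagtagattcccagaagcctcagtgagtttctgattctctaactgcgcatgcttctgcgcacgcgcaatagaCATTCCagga

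The label was checked with WWTR1, with 293 to 306 TPM under HA-TAZ overexpression against 1.69 to 2.69 TPM without it. All 9 plasma cell markers were at 1 TPM or more in every library, and so was 1 marker each of the T cell, myeloid, fibroblast and erythroid lists. CD3D and CD2 of the T cell list, LYZ of the myeloid list and COL3A1 of the fibroblast list were listed at 0 in some libraries and were at or under 0.21 TPM in the others. These other lists summed to 1.34 to 1.47, 2.74 to 3.36, 3.18 to 4.01 and 8.54 to 14.7 TPM with HA-TAZ against 2.25 to 2.56, 2.54 to 3.01, 3.79 to 4.89 and 8.04 to 20.6 TPM without. The plasma cell markers summed to between 2785 and 3217 TPM with HA-TAZ and between 4270 and 4825 TPM in the controls. Most of that sum was IGJ, the immunoglobulin J chain, at 2234 to 2618 TPM with HA-TAZ against 3617 to 4082 TPM without. Also lower in every HA-TAZ library were IRF4, XBP1, PRDM1, TNFRSF17, MZB1 and CD38. IRF4 was at 157 to 190 against 200 to 270 TPM, and CD38 at 8.62 to 11.0 against 18.3 to 19.5 TPM. Of all tested genes, 43.6% were lower without overlap in TPM as deposited. SDC1, which encodes the plasma cell surface protein CD138, overlapped between the groups at 89.7 to 94.95 against 79.8 to 93.1 TPM, and SLAMF7 lay above the controls in every HA-TAZ library, at 6.55 to 7.78 against 3.50 to 4.51 TPM. The part of these markers in the results below was not tested. Because TPM are shares of a library, each library was also divided by a median-of-ratios factor, which gives scaled TPM. The factor ran from 0.860 to 0.961 with HA-TAZ and from 1.05 to 1.20 without. The median log2 fold change of all 22651 tested genes was -0.03 on scaled TPM and -0.27 on TPM as deposited, so each direction below is given on both scales. Estimated counts implied by the authors' deposited table came to 52795484 for a typical library and to 52047 for the 10 hosts together, and the counting error of a host's sum was between 0.858% and 2.52%. In bulk RNA, fewer cells that express a gene and less of its RNA per cell cannot be told apart.

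The hosts differed widely in level. Mean TPM over the 6 libraries ran from 21.0 for SNHG15 to 817 for SNHG3, with GAS5 at 219, ZFAS1 at 178, SNHG6 at 174, SNHG1 at 171, SNHG8 at 133, SNHG7 at 95.7, SNHG5 at 61.7 and SNHG12 at 54.8. In this order, the ranges of ZFAS1 and SNHG6, of SNHG6 and SNHG1, and of SNHG5 and SNHG12 overlapped, while the other 6 neighbouring pairs were apart in all libraries. Together the hosts took 0.196% to 0.205% of all TPM with HA-TAZ against 0.165% to 0.196% without.

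**Figure D1:**
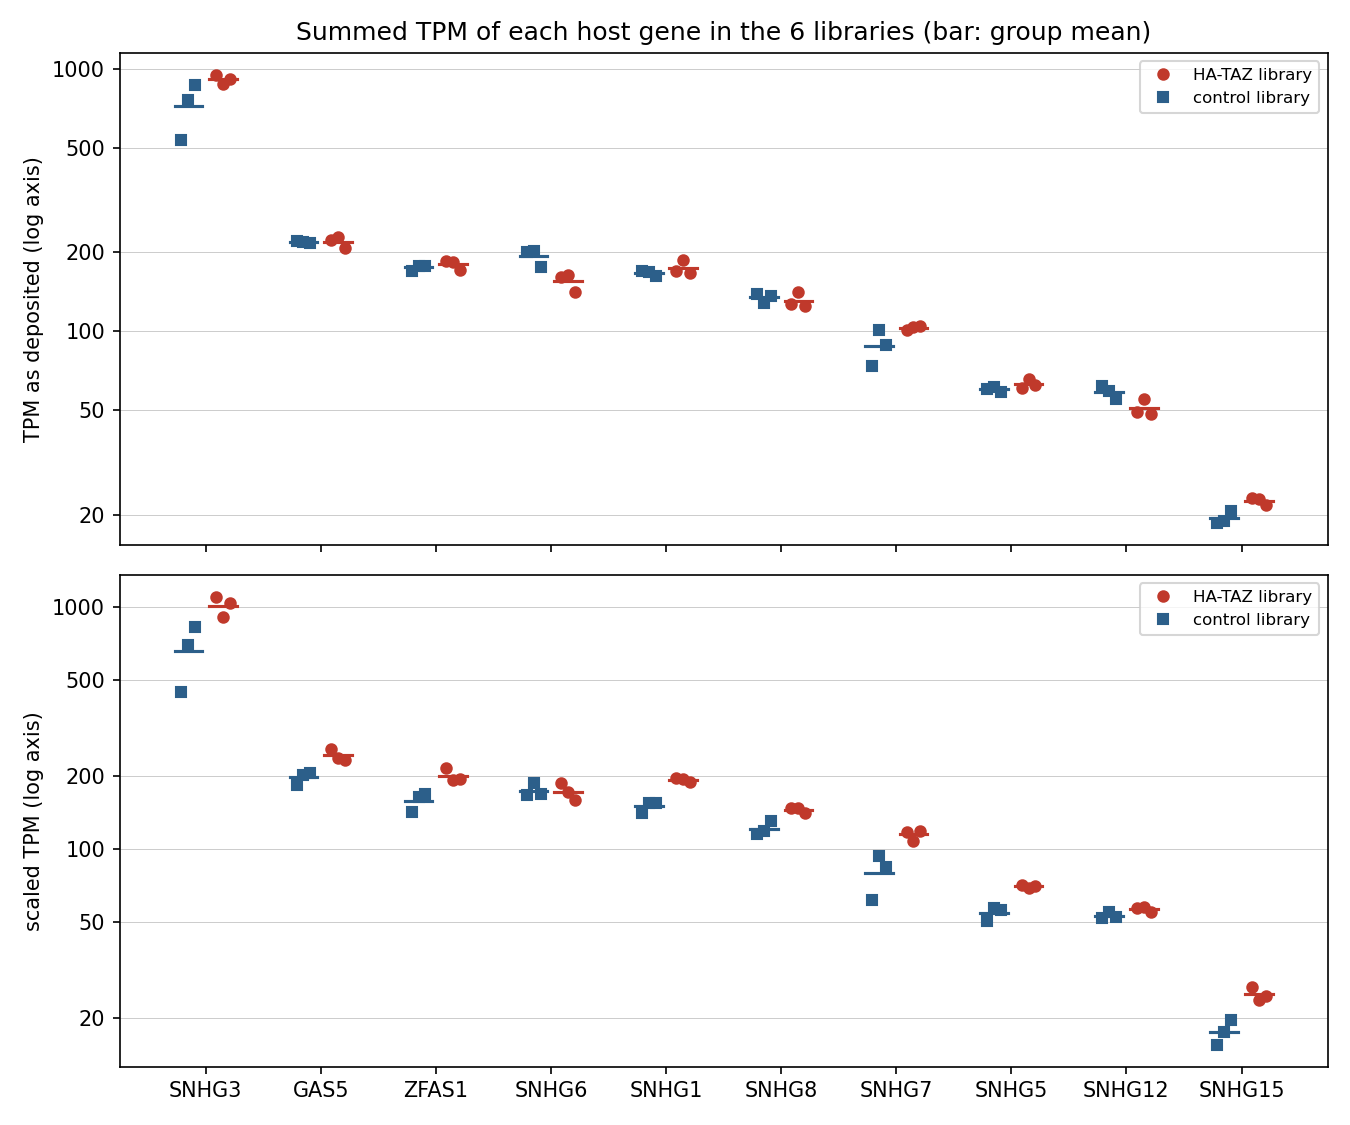
Summed TPM of the 10 hosts in each library on a log axis, as deposited in the upper panel and scaled in the lower one; circles are HA-TAZ libraries, squares control libraries and bars group means. On scaled TPM the HA-TAZ circles lie above all control squares in 9 hosts, whereas as deposited they do so in SNHG3 and SNHG15 only and lie below in SNHG6 and SNHG12.

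On scaled TPM 3 hosts passed the test, SNHG1, SNHG5 and SNHG15, all higher in HA-TAZ, out of 10 that all passed the filter on level. The test was limma on log2(scaled TPM + 1) with Benjamini-Hochberg adjustment over all genes, and it called 7.29% of tested genes, 4.67% as higher and 2.63% as lower. The median log2 fold change of the 10 hosts was 0.35 on scaled TPM and 0.05 as deposited, and that of all tested genes was -0.03 and -0.27. On TPM as deposited limma called no host, with 14.7% of tested genes called, 1.15% higher and 13.5% lower; no host had a larger log2 fold change there than 0.37. At an unadjusted p under 0.05 on scaled TPM, 8 hosts were higher and 0 lower, compared with 16.6% of all tested genes higher and 30.7% in either direction.

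In 9 hosts the 3 HA-TAZ libraries lay above all 3 controls on scaled TPM, a separation that 20.2% of tested genes showed in this direction, 18.3% in the other and 38.5% in either. As deposited, 2 hosts lay above without overlap and 2 below, compared with 4.41% and 43.6% of tested genes (48.0% in either direction). All 10 hosts had a log2 fold change above the median gene on scaled TPM, and 9 did as deposited, where SNHG6 was the exception.

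**Figure D2:**
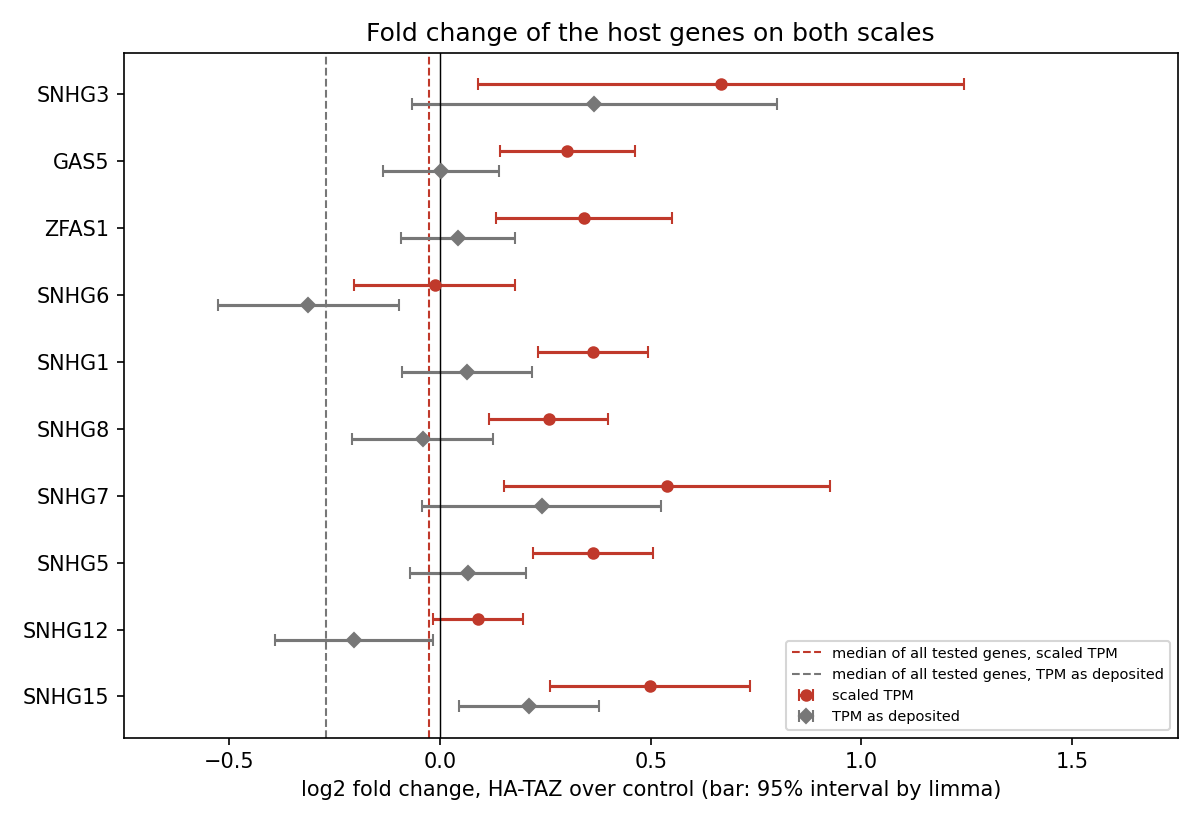
Log2 fold change of each host, HA-TAZ over control, with its 95% interval from limma, on scaled TPM (circles) and on TPM as deposited (diamonds); dashed lines mark the median of all tested genes on each scale. The scaled values run from -0.01 (SNHG6) to 0.67 (SNHG3), and the interval is widest in SNHG3 and SNHG7.

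SNHG1 (ENSG00000255717), the host of a cluster of box C/D snoRNAs from SNORD22 to SNORD31, measured 170, 187 and 166 TPM in HA-TAZ 1 to 3 against 169, 168 and 163 TPM in control a to c. Deposited groups overlapped, with means of 175 ± 11.2 and 167 ± 3.44 (SD, n = 3). After scaling the values were 197, 195 and 188 against 141, 155 and 155, and the groups were apart. The log2 fold change was 0.36 (SE 0.05, limma adjusted p = 0.026) on scaled TPM and 0.06 (adjusted p = 0.459) as deposited.

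SNHG5 (ENSG00000203875), the host of the SNORD50 pair, measured 61.0, 66.0 and 62.3 TPM with HA-TAZ against 60.3, 61.5 and 58.8 TPM in the controls. The deposited groups touched, since HA-TAZ 1 lay between the controls. Scaled values were 70.9, 68.7 and 70.5 against 50.2, 56.8 and 55.9, with no overlap. The log2 fold change was 0.36 (SE 0.06, limma adjusted p = 0.031) on scaled TPM and 0.07 (adjusted p = 0.389) as deposited.

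SNHG15 (ENSG00000232956), the host of the H/ACA snoRNA SNORA9, had the lowest level of the set. It measured 23.2, 22.9 and 21.8 TPM with HA-TAZ against 18.6, 19.0 and 20.6 TPM in the controls. It was higher in every HA-TAZ library on both scales. Its log2 fold change was 0.50 (SE 0.10, limma adjusted p = 0.042) on scaled TPM and 0.21 (adjusted p = 0.077) as deposited.

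These 3 calls rested on all 6 libraries. With control a left out, SNHG1 and SNHG5 were still called, and with any other single library left out no host was, while all genes called dropped from 1652 to between 118 and 470. Limma without the intensity trend also called no host, and without a filter on level only SNHG1 was called. When genes with a mean of at least 5 TPM alone were tested, GAS5, ZFAS1 and SNHG8 were called in addition, with limma adjusted p of 0.035, 0.044 and 0.037. With factors from protein-coding genes SNHG15 missed the threshold at a limma adjusted p of 0.051.

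GAS5 (ENSG00000234741), a growth arrest-specific transcript that hosts a cluster of box C/D snoRNAs, measured 222, 229 and 207 TPM with HA-TAZ against 221, 218 and 217 TPM in the controls. The controls lay within the HA-TAZ range, and its log2 fold change as deposited was 0.00. Scaled values were 259, 238 and 234 against 184, 202 and 207, and the groups were apart. Its log2 fold change was 0.30 (SE 0.07), just outside the threshold at a limma adjusted p of 0.051.

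ZFAS1 (ENSG00000177410), which hosts the box C/D snoRNAs SNORD12, SNORD12B and SNORD12C, measured 186, 184 and 172 TPM with HA-TAZ against 171, 178 and 177 TPM in the controls. The log2 fold change was 0.34 (SE 0.08, limma adjusted p = 0.065) on scaled TPM, where the groups were apart, and 0.04 as deposited, where they overlapped. SNHG8 (ENSG00000269893), the host of SNORA24, measured 127, 141 and 125 TPM with HA-TAZ against 139, 129 and 137 TPM in the controls. Its direction depended on the scale: it had a log2 fold change of 0.26 (SE 0.06, limma adjusted p = 0.053) on scaled TPM and -0.04 as deposited.

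SNHG12 (ENSG00000197989), the host of SNORD99 and 3 H/ACA snoRNAs, measured 49.1, 55.0 and 48.5 TPM with HA-TAZ against 61.9, 59.3 and 55.1 TPM in the controls. It was lower in every HA-TAZ library as deposited, with HA-TAZ 2 and control c almost equal. Scaled values were 57.0, 57.3 and 54.9 against 51.6, 54.7 and 52.5, and the order of the groups turned. Neither value passed, with a log2 fold change of 0.09 (limma adjusted p = 0.216) on scaled TPM and -0.21 (adjusted p = 0.102) as deposited.

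SNHG6 (ENSG00000245910), the host of SNORD87, was the one host that was not higher after scaling. It measured 161, 165 and 141 TPM with HA-TAZ against 200, 203 and 177 TPM in the controls, and as deposited every HA-TAZ library was below every control. Scaled values were 187, 171 and 159 against 167, 187 and 168, which overlapped. Its log2 fold change was -0.01 (95% interval -0.20 to 0.18, limma adjusted p = 0.925) on scaled TPM and -0.31 (adjusted p = 0.060) as deposited.

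SNHG3 (ENSG00000242125) and SNHG7 (ENSG00000233016) had the highest scaled fold changes and the widest spread among controls in proportion to their level. SNHG3 measured 945, 876 and 916 TPM with HA-TAZ against 535, 759 and 871 TPM in the controls. SNHG7 measured 101, 104 and 105 TPM with HA-TAZ against 73.9, 102 and 88.5 TPM in the controls. In both hosts control a was the lowest library, control c of SNHG3 came within 5 TPM of HA-TAZ 2, and control b of SNHG7 was above HA-TAZ 1. On scaled TPM both hosts were higher in every HA-TAZ library.

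Neither host passed the test. The log2 fold change of SNHG3 was 0.67 (SE 0.23, limma adjusted p = 0.124) and that of SNHG7 was 0.54 (SE 0.16, adjusted p = 0.087) on scaled TPM, and 0.37 and 0.24 as deposited. Without control a it was 0.41 (limma adjusted p = 0.127) for SNHG3 and 0.36 (adjusted p = 0.078) for SNHG7.

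The table files snoRNA entries under the gene IDs of their hosts, and in these 2 hosts such entries made up much of the sum. GENCODE 29, a GRCh38 annotation used for transcript types, gave a type to 129 of the 139 host transcripts, of which 17 are snoRNAs, 46 retained introns and 66 other long transcripts. Of these 66, 5 hold a snoRNA entry whole in an exon: ENST00000537925.1 and ENST00000540725.1 of SNHG1, ENST00000447221.1 of SNHG7, ENST00000602573.1 of SNHG8 and ENST00000577700.1 of SNHG15. Matching was by ID without the version number, and 36 host transcripts had the same version in GENCODE 29. For the others, lengths and exons may differ from those that were quantified. Of the 17 snoRNA entries 13 were at 0 TPM in every library. The other 4 were SNORA73A under SNHG3, SNORA17B under SNHG7, and SNORD22 and SNORD30 under SNHG1. SNORD30 was between 2.16 and 3.65 TPM in the 6 libraries. An entry at 0 does not show that the snoRNA is missing from the cells.

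SNORA73A and SNORA73B, both H/ACA snoRNAs in introns of SNHG3, are printed because SNORA73A decides what the summed value of its host holds and SNORA73B is its near copy. SNORA73A lies at chr1:28507366-28507571, plus strand, and SNORA73B at chr1:28508559-28508762, plus strand, of GRCh38. Capitals mark the ACA near the 3' end, the box that names the class.
SNORA73A: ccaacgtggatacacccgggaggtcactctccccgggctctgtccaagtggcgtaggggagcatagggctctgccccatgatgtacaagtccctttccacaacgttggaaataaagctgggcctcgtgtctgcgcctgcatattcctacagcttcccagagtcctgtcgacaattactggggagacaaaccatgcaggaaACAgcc
SNORA73B: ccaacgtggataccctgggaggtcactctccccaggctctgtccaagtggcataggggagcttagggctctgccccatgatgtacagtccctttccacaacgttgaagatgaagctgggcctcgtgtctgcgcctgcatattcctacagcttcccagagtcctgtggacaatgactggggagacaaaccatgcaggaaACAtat
SNORA73A and SNORA73B were identical at 192 of 206 aligned positions (93.2%). Cut into words of 31 bases, SNORA73A shares 24 of its 176 words with SNORA73B and all 176 with the retained-intron transcript ENST00000437681.1 of SNHG3. In SNHG7, the exons of ENST00000447221.1 hold snoRNA entries of GENCODE 29 whole. How reads were divided between such pairs was decided by the authors' quantification, so the single values of these entries are uncertain.

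SNORA73A (ENST00000364938.1, 206 bases) measured 652, 576 and 633 TPM with HA-TAZ against 263, 505 and 577 TPM in the controls. It took 65.4% of the TPM of SNHG3 but 14.5% of the estimated counts implied by the authors' deposited table, since TPM weights a read by the inverse of transcript length. Control a had less than any other library, and control c and HA-TAZ 2 were nearly equal. Its log2 fold change was 0.84 (SE 0.34, limma adjusted p = 0.203) on scaled TPM and 0.54 as deposited.

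A second short entry of SNHG3, ENST00000447507.1, a retained-intron entry of 185 bases in 2 exons within chr1:28506043-28508270, plus strand, of GRCh38, carried another 25.5% of TPM and 4.63% of implied counts. Its sequence shows what sets it apart from the spliced SNHG3 transcript ENST00000413987.1, with the 76 bases found in both in capitals.
SNHG3 ENST00000447507.1: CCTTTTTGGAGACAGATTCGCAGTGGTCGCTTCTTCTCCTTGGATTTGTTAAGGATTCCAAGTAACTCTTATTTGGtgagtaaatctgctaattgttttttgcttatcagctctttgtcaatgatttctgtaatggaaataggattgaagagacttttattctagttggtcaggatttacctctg
It measured 231, 234 and 218 TPM with HA-TAZ against 182, 171 and 217 TPM in the controls. HA-TAZ 3 and control c were about equal and the other libraries were apart. Its log2 fold change on scaled TPM was 0.57 (SE 0.13, limma adjusted p = 0.092), and the authors' deposited table gave a natural log effect of 0.40 at q = 0.00089.

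The long SNHG3 transcripts, which held most of the implied counts, did not follow the short ones. ENST00000437681.1 (2614 bases, 49.6% of implied counts) measured 36.3, 39.1 and 37.2 TPM with HA-TAZ against 50.1, 45.8 and 43.7 TPM in the controls. ENST00000413987.1 (2201 bases, 31.2% of implied counts) measured 26.0, 27.2 and 27.5 TPM with HA-TAZ against 40.6, 37.4 and 34.2 TPM in the controls. As deposited, every HA-TAZ library was below every control in both.

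On scaled TPM the log2 fold change was -0.01 (limma adjusted p = 0.953) for ENST00000437681.1 and -0.17 (adjusted p = 0.220) for ENST00000413987.1. The summed value of SNHG3 thus combined 2 short entries with positive fold changes and 2 long ones without. Of the long ones, ENST00000437681.1 was almost unchanged and ENST00000413987.1 had a negative fold change. Limma called none of these entries on scaled TPM.

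**Figure D3:**
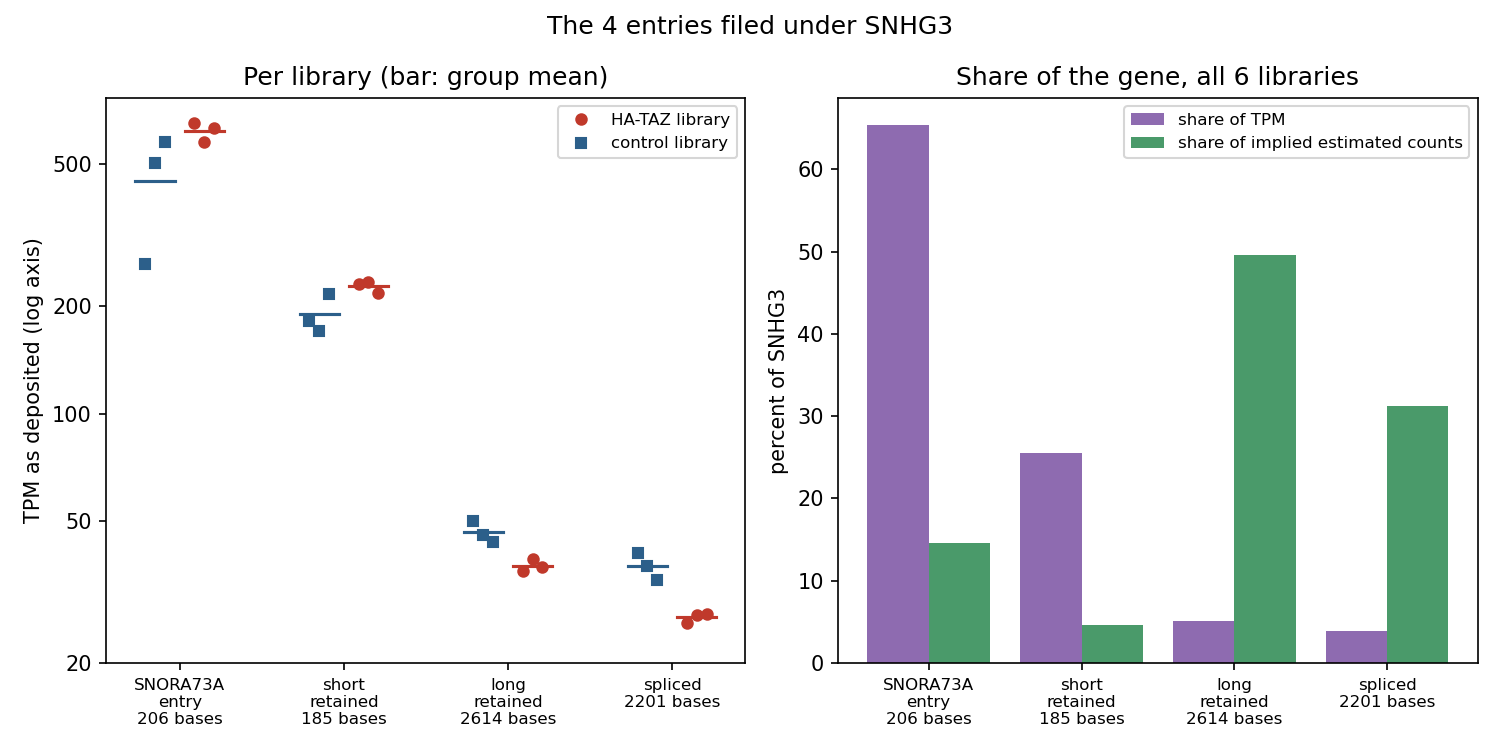
The 4 entries filed under SNHG3: TPM as deposited in each library on a log axis (left; circles HA-TAZ, squares control, bars group means), and each entry's percent of the gene's TPM and of the implied estimated counts (right). The SNORA73A entry holds 65.4% of TPM and 14.5% of implied counts, and the long retained-intron transcript holds 5.14% and 49.6%.

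SNORA17B (ENST00000362567.2, 130 bases) took 31.1% of the TPM of SNHG7 and 1.53% of its implied counts. It measured 38.3, 30.9 and 38.7 TPM with HA-TAZ against 12.1, 35.3 and 23.1 TPM in the controls, and the groups overlapped. Its log2 fold change on scaled TPM was 0.99 (SE 0.40, limma adjusted p = 0.202). With snoRNA entries left out of all sums, a choice made after seeing the data, the log2 fold change on scaled TPM was 0.40 (limma adjusted p = 0.057) for SNHG3, 0.36 (adjusted p = 0.055) for SNHG7 and 0.32 (adjusted p = 0.045) for SNHG1, and SNHG1, SNHG5 and SNHG15 were again the hosts called.

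Other snoRNAs of the hosts have gene IDs of their own. SNORA73B measured 846, 811 and 814 TPM with HA-TAZ against 678, 797 and 802 TPM in the controls, and its log2 fold change was 0.42 (SE 0.13, limma adjusted p = 0.098) on scaled TPM. SNORD99 of SNHG12 was at 72.9, 94.2 and 74.5 TPM against 132, 97.2 and 102 TPM, and its log2 fold change was -0.15 (limma adjusted p = 0.341) on scaled TPM. SNORD12, SNORD12B and SNORD12C of ZFAS1 had log2 fold changes of 0.49, 0.09 and 0.39 with overlapping groups. Limma called none of these 5 snoRNA genes, and 1, SNORA73B, had an unadjusted p under 0.05. As deposited SNORA73B had 0.12 and SNORD99 -0.45. The median of the 5 was 0.39 on scaled TPM and 0.09 as deposited. SNORD22, filed under SNHG1, was at 0, 4.06 and 11.2 TPM in HA-TAZ and listed at 0 in all controls. The snoRNAs of GAS5 were not analysed here.

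Each host was split by transcript type, a choice made after seeing the data. The other long transcripts, those typed neither as retained introns nor as snoRNAs, carried most of the calls. Their sums were called higher in 5 of 10 hosts, retained-intron sums in 1 of 6 and snoRNA sums in 0 of 3, with 7.31% of all features called by limma in that fit, 4.68% higher and 2.63% lower. At an unadjusted p under 0.05, limma had 8 of these sums higher and that of SNHG3 lower, compared with 16.6% of all features in that fit higher and 14.1% lower. The 5 called sums were those of GAS5, SNHG1, SNHG5, SNHG12 and SNHG15, with log2 fold changes on scaled TPM of 0.53, 0.55, 0.44, 0.42 and 0.50. As deposited these were 0.23, 0.25, 0.15, 0.13 and 0.21, and of these limma called GAS5 there (adjusted p = 0.042). On that scale limma also called lower the other long sum of SNHG3 (-0.46, adjusted p = 0.031) and the retained-intron sum of SNHG12 (-0.34, adjusted p = 0.040). The other long sum of SNHG3 holds 1 transcript, ENST00000413987.1. In the fit of single transcripts limma called no host transcript as deposited. With 1 library left out, the other long sums of GAS5 and SNHG5 were each called in 1 of 6 fits and the other 3 in none. The called retained-intron sum was that of SNHG5, at 0.25 (limma adjusted p = 0.049) on scaled TPM and -0.04 as deposited. It was called in 0 of those 6 fits.

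GAS5 has the most transcripts of the set. Its 10 other long transcripts summed to 110, 97.0 and 103 scaled TPM in HA-TAZ and 64.4, 71.3 and 78.1 in control libraries, a log2 fold change of 0.53 (SE 0.09, limma adjusted p = 0.031). Its 19 retained-intron transcripts summed to 149, 141 and 130 against 120, 130 and 129, which overlapped narrowly, with a log2 fold change of 0.15 (adjusted p = 0.198) that turned to -0.15 as deposited. SNHG12 had the same order, with 16.8, 19.0 and 18.1 scaled TPM against 12.7, 13.8 and 13.1 in the other long transcripts (0.42, limma adjusted p = 0.031). In its retained-intron transcripts, which hold most of its TPM, the log2 fold change was -0.05 (adjusted p = 0.570), and the gene's sum lay between the 2 types. In SNHG3 the order was the opposite, with -0.17 for the spliced transcript (limma adjusted p = 0.104) and 0.47 for retained introns (adjusted p = 0.054). Both adjusted p come from the fit by type, not from that of single transcripts. Most of the TPM of those retained introns was the 185-base entry ENST00000447507.1.

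**Figure D4:**
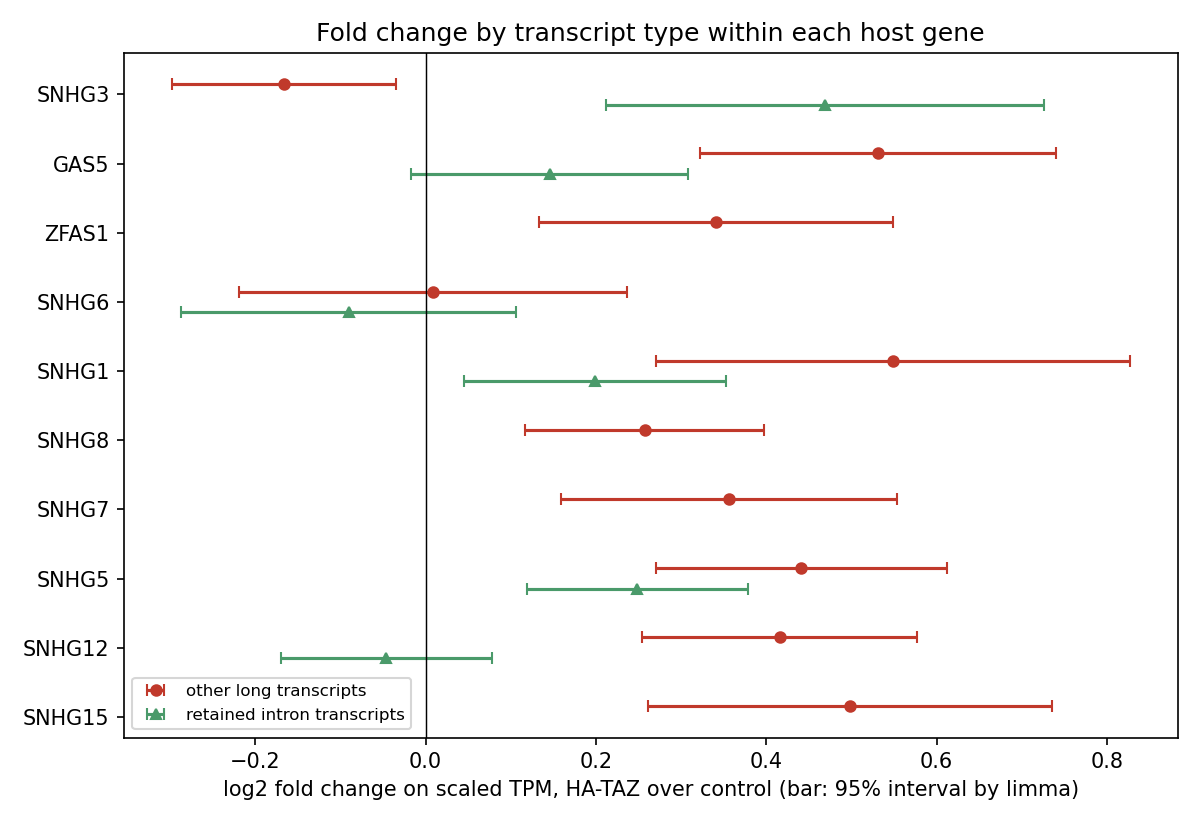
Log2 fold change on scaled TPM of the other long and the retained-intron transcripts of each host, with 95% intervals from limma; ZFAS1, SNHG7, SNHG8 and SNHG15 have no retained-intron sum. Values of the other long transcripts (circles) run from -0.17 in SNHG3 to 0.55 in SNHG1 and lie above the retained-intron values (triangles) in 5 of the 6 hosts that have both. The retained-intron sum of SNHG3 is mostly the short entry ENST00000447507.1.

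Shares within a gene do not depend on scaling. In GAS5 retained-intron transcripts held 57.6%, 59.3% and 55.7% of the TPM of long transcripts in HA-TAZ and 65.0%, 64.6% and 62.2% in control libraries. In SNHG12 they held 70.6%, 66.9% and 67.1% against 75.3%, 74.8% and 75.1%. Both hosts had a lower share in every HA-TAZ library.

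SNHG1 had 59.4%, 66.6% and 63.9% against 69.7%, 69.6% and 67.4%, and SNHG5 had 42.0%, 41.9% and 40.8% against 45.8%, 43.6% and 45.2%. SNHG6 overlapped, with means of 18.7% and 19.9%. SNHG3 was higher in HA-TAZ, at 91.1%, 90.9% and 90.3% against 85.1%, 85.3% and 88.4%. The retained-intron TPM of SNHG3 was mostly that of the 185-base entry ENST00000447507.1, so its share mainly describes that entry. The share was thus lower without overlap in 4 of 6 hosts, as it was in 29.7% of the 4893 genes that have both types, and 32.4% of them did not overlap in either direction. Across those genes the retained-intron share was lower in HA-TAZ in 77.5%, with a median difference of -2.17 percentage points, so a lower share was common. The differences in the 4 hosts were -6.45 points in GAS5, -6.90 in SNHG12, -5.59 in SNHG1 and -3.34 in SNHG5. An exact two-sided permutation test cannot give less than p = 0.1 with 3 against 3, and the smallest adjusted p over the 6 hosts was 0.12.

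**Figure D5:**
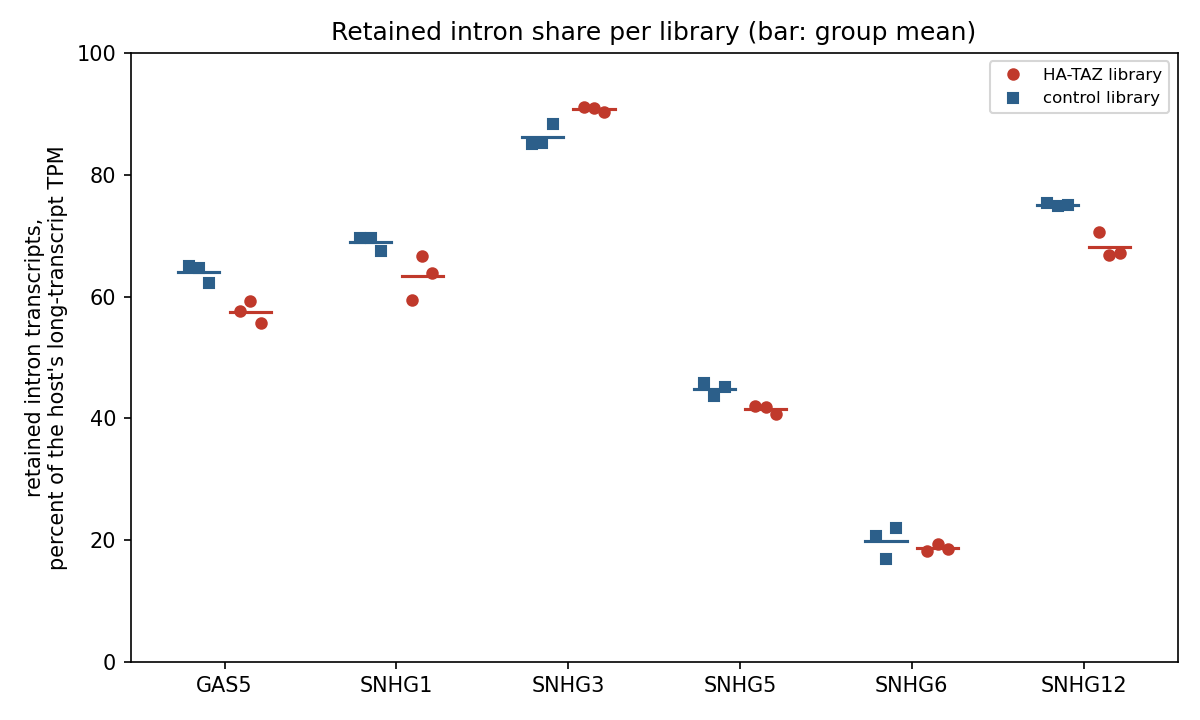
Retained-intron transcripts as a percent of the long-transcript TPM of the 6 hosts that have both types, in each library (circles HA-TAZ, squares control, bars group means). HA-TAZ libraries lie below all controls in GAS5, SNHG1, SNHG5 and SNHG12, above them in SNHG3, and among them in SNHG6. The retained-intron TPM of SNHG3 is mostly the short entry ENST00000447507.1.

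At the level of single transcripts, 90 of the 139 passed the filter on level and limma called 1, compared with 0.534% of all tested transcripts, 0.432% higher and 0.103% lower. This was ENST00000537869.1 of SNHG1, which had 7.42, 8.89 and 8.24 TPM with HA-TAZ against 4.31, 4.26 and 4.61 TPM in the controls. The groups were apart on both scales, and the log2 fold change was 1.02 (SE 0.10, limma adjusted p = 0.021) on scaled TPM and 0.77 as deposited, and the call was lost with any 1 library left out. At an unadjusted p under 0.05, limma had 33 host transcripts higher and 0 lower, compared with 13.1% and 11.1% of tested transcripts.

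The authors' deposited table, made with sleuth's Wald test on scaled estimated counts, gave statistics for 102 host transcripts. In it 15 had a q-value under 0.05, compared with 5.68% of all transcripts in the table, and 15 were higher with HA-TAZ, compared with 4.08% higher and 1.60% lower in the table. They came from 9 hosts, all but SNHG6, and 13 were other long transcripts and 2 retained introns. Of the 13, 2 hold a snoRNA entry whole in an exon, ENST00000447221.1 of SNHG7 and ENST00000577700.1 of SNHG15. At a q-value under 0.01, 10 remained.

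In GAS5 the main other long transcripts, ENST00000448718.1 and ENST00000450589.1, had natural log effects of 0.49 (q = 1.42e-05) and 0.39 (q = 0.0019) in the authors' deposited table. The first measured 39.0, 41.8 and 35.0 TPM with HA-TAZ against 28.0, 28.4 and 31.6 TPM in the controls. With 15.5% and 14.6% of the gene's TPM, they stood beside retained-intron transcripts such as ENST00000421068.1 (9.28%), whose effect was 0.03 (q = 0.918).

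In SNHG5 the most abundant transcript by group mean differed between the groups. ENST00000414002.1 (430 bases in GENCODE 29) measured 18.2, 14.5 and 17.9 TPM with HA-TAZ against 6.51, 8.82 and 12.1 TPM in the controls, with an effect of 0.84 (q = 0.0097) in the authors' deposited table. ENST00000369605.4 (1032 bases) had 10.3 ± 1.61 TPM against 15.4 ± 2.94 TPM (SD, n = 3), with overlap, and an effect of -0.18 (q = 0.447) in the authors' deposited table. Limma on scaled TPM gave them 1.12 (adjusted p = 0.094) and -0.25 (adjusted p = 0.284).

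In SNHG8 the main transcript ENST00000602414.1, with 31.6% of TPM, measured 49.9, 48.0 and 45.0 TPM with HA-TAZ against 30.9, 36.2 and 42.0 TPM in the controls. Its effect in the authors' deposited table was 0.49 (q = 0.0056), although the gene's sum overlapped as deposited. In SNHG12 ENST00000531126.1 was at 6.82, 7.94 and 6.65 TPM with HA-TAZ against 2.74, 4.72 and 4.98 TPM, with an effect of 0.79 (q = 0.014) in the authors' deposited table. Its retained-intron transcripts ENST00000470977.1 and ENST00000461448.1, the most abundant of the gene, were lower in every HA-TAZ library as deposited and overlapped after scaling.

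ZFAS1 has no retained-intron entry. Its transcript ENST00000326677.5 (34.2% of TPM) measured 69.2, 61.9 and 62.3 TPM with HA-TAZ against 55.7, 56.0 and 60.0 TPM in the controls, with an effect of 0.33 (q = 0.0035) in the authors' deposited table, and the rarer ENST00000371743.3 had 1.01 (q = 0.0053). The most abundant one, ENST00000428008.1 with 40.5%, overlapped as deposited and reached q = 0.056 in the authors' deposited table. In SNHG7 ENST00000416970.1 was at 24.5, 23.8 and 22.5 TPM against 15.3, 20.3 and 18.3 TPM, with an effect of 0.50 (q = 0.0023) in the authors' deposited table, while the most abundant one, ENST00000436596.1, had 0.12 (q = 0.571).

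The authors' deposited table placed 6 further transcripts under the q-value threshold, namely 2 of SNHG15, ENST00000577700.1 (effect 0.29) and ENST00000578968.1 (0.46), ENST00000447221.1 of SNHG7 (0.36), and 3 of SNHG1. Of these 3, ENST00000537869.1 had an effect of 0.84 and the retained-intron transcript ENST00000538654.1 had 0.17. ENST00000539975.1 was at 3.32, 2.78 and 1.02 TPM in HA-TAZ and listed at 0 in all controls, so no fold is given for it. In SNHG6 the main transcript ENST00000521399.1 held 62.9% of TPM, with an effect of 0.03 (q = 0.904) in the authors' deposited table.

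As a share of its gene, 8 of 90 host transcripts were higher and 14 lower without overlap between the groups, 22 in all. Among all genes 24.9% of transcripts showed such a separation, 11.0% higher and 13.9% lower, so the hosts' share is close to the background, and the smallest adjusted p of an exact permutation test was 0.409. Leaving out 1 library left between 26 and 42 such transcripts, because fewer libraries separate more easily.

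Genes around the hosts were read from lists. Of 6 other tested genes with an SNHG name, limma called 3, all higher on scaled TPM: SNHG16 (log2 fold change 0.41), SNHG17 (0.35) and SNHG9 (0.57), with 0.11, 0.05 and 0.30 as deposited. In that fit 7.29% of all tested genes were called and 4.67% were called higher. Their median was 0.38 on scaled TPM and 0.08 as deposited, close to that of the 10 hosts. Of 79 tested ribosomal protein genes, which share the 5' TOP start, limma called 2, RPS15 (0.38) and RPL36 (0.44), and the median was 0.27 on scaled TPM and -0.02 as deposited. At an unadjusted p under 0.05, limma had 59 of the 79 higher and 0 lower on scaled TPM, compared with 16.6% of all tested genes higher. Of 19 other 5' TOP genes, 2 were called by limma, both higher, among them GNB2L1 (0.28), which encodes the ribosome-bound scaffold RACK1, and the median was 0.06 on scaled TPM and -0.24 as deposited. At an unadjusted p under 0.05, 8 of the 19 were higher. The direction of both medians depends on the scale, and that of the 19 genes was -0.01 with factors from protein-coding genes. As deposited, RPS15 and RPL36 had 0.08 and 0.14, and GNB2L1 turned to -0.02.

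Among 17 NMD factors, limma called SMG8 (log2 fold change 0.41) and the exon junction protein gene EIF4A3 (0.32) higher and the NMD kinase gene SMG1 (-0.24) lower on scaled TPM, with 0.13, 0.02 and -0.54 as deposited. These are 3 of 17, beside 7.29% of all tested genes called in the same fit. The median of the 17 was 0.00 on scaled TPM and -0.28 as deposited, near that of all genes. UPF1, the central helicase of NMD, measured 30.7 ± 0.731 TPM with HA-TAZ against 30.7 ± 1.03 TPM in the controls (SD, n = 3), with a log2 fold change of 0.29 (limma adjusted p = 0.056) on scaled TPM. Of 15 snoRNP proteins, which bind and work with snoRNAs, limma called 1, FBL (0.42, and 0.12 as deposited), the 2'-O-methyltransferase of box C/D particles, and the median was 0.20 on scaled TPM and -0.10 as deposited. At an unadjusted p under 0.05, limma had 8 of these 15 genes higher and 0 lower on scaled TPM, and 5 of the 17 NMD factors higher and 1 lower, against 16.6% higher among all tested genes.

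Protein-coding genes that start on the other strand within 1000 bases of a host were found for 3 hosts. SLC3A2, whose start lies 188 bases from that of SNHG1 in GENCODE 29, was at 150 ± 4.55 TPM against 142 ± 5.74 TPM (SD, n = 3) and was called higher by limma on scaled TPM (log2 fold change 0.38, adjusted p = 0.043). ZNFX1 beside ZFAS1 had 0.29 (limma adjusted p = 0.057) and ZBTB37 beside GAS5 had -0.02 (adjusted p = 0.884). As deposited the 3 values were 0.08, 0.03 and -0.26. Whether the authors' quantification used the strand is not given in the sources used here, so values of overlapping parts of a host and its neighbour are uncertain.

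The genes whose pattern was most like the hosts' mean over the 6 libraries, among 22641 other genes, were NDUFB4, CARM1, RPL12, ODC1 and ID3, with Pearson's r from 0.998 to 0.9997 over the 6 libraries. On scaled TPM their log2 fold changes ran from 0.22 (ODC1) to 0.46 (CARM1), and limma called CARM1 (adjusted p = 0.049). All genes share the libraries and their scaling, so the correlation is given as a description.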

How the data were processed

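Total RNA of 6 KMS27 libraries was depleted of ribosomal RNA and sequenced, per the labels' protocols. The submitters' processing notes name kallisto 0.46.0, sleuth 0.30.0 and GRCh37. The authors deposited TPM per transcript and a table whose p-values, q-values, natural log effects and natural log means of estimated counts are theirs, per the file headers. Its standard errors are also the authors'. Annotation release and use of strand are not given in the sources used here. The table's pairing gave gene symbols and IDs. The members and lists were chosen with earlier results of these data known.

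TPM was summed per gene ID and divided by median-of-ratios factors. Genes and transcripts with a mean of at least 1 TPM were tested with limma 3.58.1 (R 4.3.3) (intensity trend, values as log2 of scaled TPM plus a pseudocount of 1, which understates folds of low genes); two-sided p-values were adjusted by Benjamini-Hochberg and called under 0.05. Transcript tests used the gene-level factors. Single shares had exact permutation tests. Implied counts are exponentials of the authors' deposited natural log means. The script was tested on simulated data. Named were all 10 members, transcripts from the most abundant 4 of each, those under a q-value of 0.05, and of each list every called gene where 5 or fewer were called, except 1 that is not reported here; UPF1, the 5 snoRNA genes and the neighbours were named beside them. Types came from GENCODE 29, sequences from GENCODE 29 and RefSeq, both GRCh38, matched by ID or symbol. Of the deposited columns of values per library, 0 were left out. Depth per library is unknown. Other scalings, pseudocounts, filters, the trend and each library left out were tried as alternatives. Tables were handled with pandas 2.3.3 and numpy 2.4.6 under Python 3.11.15.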

Additional observations from a re-analysis of the deposited data

How the results depend on the processing

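The number of hosts called by limma was 3, all higher. It was 0 on TPM as deposited, 1 with no filter on level, 6 with a mean of at least 5 TPM and 0 without the intensity trend, and 0 to 2 with 1 library left out. All genes called were 1652, of which 64.0% were higher, and 3329 as deposited, of which 7.84% were higher. With factors from protein-coding genes they were 1520, of which 43.4% were higher, so the more common direction also depended on the scaling factors. They were 691 with no filter, 756 without the trend and 118 to 470 with 1 library left out. Host transcripts called were 1, and 0 as deposited, 3 with a mean of at least 5 TPM and 0 with any 1 library left out (0 to 0). Transcript shares without overlap were 22, and 26 to 42 with 1 library left out. Hosts whose retained-intron share did not overlap were 5, and 5 to 6 with 1 library left out. As deposited the log2 fold change turned to -0.042 in SNHG8 and -0.21 in SNHG12. That of SNHG6, -0.01 with all libraries, ran from -0.065 to 0.047 with 1 library left out and was above 0 without HA-TAZ 3 (0.047) and without control b (0.040). No other host changed its direction under any alternative run. The authors' 15 transcripts were 10 at a q-value under 0.01. Fewer libraries leave fewer degrees of freedom, and filters change how many genes are tested; for the other changes the cause was not tested. Sums without snoRNA entries, sums by transcript type and the retained-intron share were chosen after seeing the data.

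No paired analysis was possible because no label ties a control column to one of the wild type samples, and a number beside an unlabelled name pairs nothing. TPM carries no depth of single libraries, and short or overlapping transcripts rest on few distinct bases, which limits single-transcript values. With 3 libraries in each group, intervals of the host fold changes reached up to 0.58 on the log2 scale to either side.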
